A study of Homo sapiens with 3 samples.

Results

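Cells with squamous differentiation genes were the barcodes in each library with the largest share of UMIs (counted transcript molecules) from SPRR1B, S100A8, S100A9 and KRT6A. Among barcodes with at least 5000 UMIs and at most 20% mitochondrial UMIs, the 4 genes were summed and divided by the barcode's UMIs, and the top 5% of each library were taken as members. They numbered 880 of the 17590 barcodes within those limits, and 21857 barcodes were deposited. The other 16710 barcodes within the limits served for comparison.

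The study profiled FaDu, an established human line from a squamous carcinoma of the hypopharynx, and a subline derived from it that resists TPF, chemotherapy that joins a taxane to cisplatin and fluorouracil (the labels do not say which taxane). Cinobufotalin is a bufadienolide, a steroid class known from toad venom. The 3 libraries, each a group of its own, were resistant cells given TPF with cinobufotalin, resistant cells given TPF, and FaDu cells given cinobufotalin. Values over libraries are given in this order throughout, and the libraries held 348, 233 and 299 members against 6606, 4424 and 5680 other barcodes. No group had a replicate library and dose and time were not in the labels, so nothing was tested between groups. Parental cells without cinobufotalin were not analysed here.

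Squamous cells of stratified epithelium leave the basal layer, replace the basal keratins KRT5 and KRT14 with suprabasal ones, and assemble a cornified envelope of cross-linked proteins under the plasma membrane. Many of the envelope's precursors, among them the small proline-rich (SPRR) and late cornified envelope (LCE) proteins, and many S100 proteins are encoded together in the epidermal differentiation complex on chromosome 1q21. SPRR1B is such a precursor, KRT6A is a keratin induced in wounded and hyperproliferative epithelium, and S100A8 and S100A9 form calprotectin, a metal-binding antimicrobial complex made by neutrophils and by inflamed keratinocytes. On GRCh38, SPRR1B lies at chr1:153031202-153032900 on the plus strand, S100A9 at chr1:153357854-153361027 on the plus strand, S100A8 at chr1:153390032-153391188 on the minus strand and KRT6A at chr12:52487174-52493257 on the minus strand.

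The 250 bases before the listed start are shown for 2 of the 4 genes that chose the members. They are also shown for LCN2, an antimicrobial gene described with the alarmins that was higher in members. Whether these genes are controlled together was not tested. The windows are on the plus strand of GRCh38.p14, from RefSeq, at chr1:153030953-153031202 for SPRR1B, chr1:153357604-153357853 for S100A9 and chr9:128149203-128149452 for LCN2. Capitals mark matches on either strand to AP-1 (TGANTCA), C/EBP (TTNNGCAA) or the TATA box (TATAAA).
SPRR1B: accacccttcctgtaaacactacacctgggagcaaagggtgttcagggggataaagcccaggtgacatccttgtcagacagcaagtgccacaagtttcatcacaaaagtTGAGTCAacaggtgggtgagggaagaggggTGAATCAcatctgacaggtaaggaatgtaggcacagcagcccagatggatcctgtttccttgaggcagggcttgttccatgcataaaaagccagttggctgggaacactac
S100A9: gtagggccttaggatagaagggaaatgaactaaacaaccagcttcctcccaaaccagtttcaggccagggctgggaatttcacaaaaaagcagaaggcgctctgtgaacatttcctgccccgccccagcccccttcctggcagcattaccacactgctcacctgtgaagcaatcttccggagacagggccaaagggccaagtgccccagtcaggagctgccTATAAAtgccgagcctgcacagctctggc
LCN2: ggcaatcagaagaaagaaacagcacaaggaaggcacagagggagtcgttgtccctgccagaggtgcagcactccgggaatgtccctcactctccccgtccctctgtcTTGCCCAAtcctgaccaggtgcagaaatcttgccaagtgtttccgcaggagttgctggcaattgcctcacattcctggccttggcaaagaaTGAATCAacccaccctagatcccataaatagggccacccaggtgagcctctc
The SPRR1B window held 2 AP-1 matches, the S100A9 window 1 TATA box match, and the LCN2 window 1 AP-1 and 1 C/EBP match. The NF-kB motif was searched too, and none of the 3 windows shown held it. S100A8, not shown, had 3 listed windows, of which 0 held an AP-1, C/EBP or NF-kB match and 2 held a TATA box match. For KRT6A 0 windows were listed. An AP-1 match stood in 9.04% of the 785 windows listed for genes at least 1.5-fold higher in members (483 of 759 genes matched by symbol), in 4.68% of the 13898 windows listed for all genes tested and in 6.57% of all 35116 windows. A TATA box match stood in 11.1%, 6.14% and 10.7% of the same sets, and a C/EBP match in 10.2%, 6.48% and 9.05%. These matches are letters in a window, not sites shown to be bound. Some of the 759 genes reached the level needed for testing only through members, and shares without those genes were not computed.

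The 4 genes chose the members, so their levels there are a description with no test. SPRR1B reached 223.4, 310.9 and 169.8 CPM (counts-per-million, over the summed UMIs of a class) in members and 5.98, 7.13 and 6.71 CPM in other barcodes. S100A9 reached 293.0, 370.6 and 285.4 CPM in members and 8.36, 10.7 and 6.90 CPM in other barcodes. KRT6A reached 200.7, 326.1 and 331.3 CPM in members and 6.98, 8.69 and 18.2 CPM in other barcodes. The FaDu cinobufotalin library thus had the highest KRT6A level in other barcodes, and its SPRR1B level in members was the lowest. In members its KRT6A interval for counting error (319.0 to 344.0 CPM) overlapped that of the resistant TPF library (312.1 to 340.5 CPM). S100A8 was the rarest, at 141.1, 37.3 and 77.2 CPM in members and 0.433, 0.257 and 0.381 CPM in other barcodes.

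**Figure D1:**
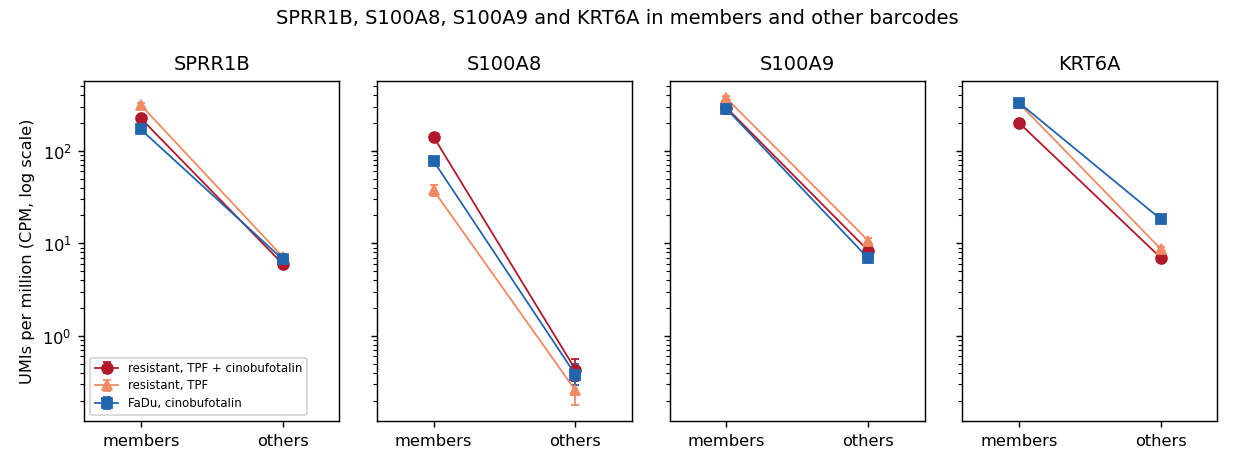
Level of SPRR1B, S100A8, S100A9 and KRT6A (CPM, log scale) in members and in other barcodes of each library, with 95% exact Poisson intervals for counting error. S100A8 spans the widest range, from 141.1 CPM in members of the resistant TPF cinobufotalin library to 0.257 CPM in other barcodes of the resistant TPF library.

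Most members were marked by some of the 4 genes and not by all of them. UMIs of all 4 were present in 8.62%, 6.01% and 10.4% of members, and UMIs of 1 gene alone in 27.3%, 20.6% and 32.8%. KRT6A was detected in 60.1%, 65.2% and 87.0% of members against 9.11%, 13.4% and 24.8% of other barcodes, and S100A8 in 24.1%, 18.0% and 18.1% of members against 0.666%, 0.633% and 0.687% of other barcodes. No cell type that should lack these genes was present to measure free RNA, so the shares in other barcodes are not corrected for it.

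The members were the upper end of a continuous range and no gap set them off. The 4 genes had no UMI in 71.5%, 61.4% and 58.9% of barcodes, the lowest member had 230.10, 285.67 and 264.63 CPM of them and the highest other barcode 230.08, 284.32 and 263.98 CPM. The median member had 462.1, 522.0 and 443.8 CPM, resting on a median of 8, 14 and 11 UMIs, and members near the limit rested on as few as 2, 3 and 2. The highest member reached 24950, 15260 and 42480 CPM, and the 10 highest members of each library held 24.0%, 32.9% and 35.4% of all member UMIs of the 4 genes. With each barcode thinned to 5000 UMIs, 1.21% (0.965 to 1.49), 1.61% (1.27 to 2.02) and 1.10% (0.855 to 1.402) kept 5 or more UMIs of the 4 genes, with exact 95% intervals for counting error. Without thinning, 1.11%, 1.33% and 0.719% of barcodes held at least that share.

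Each of the 4 genes was also high in members chosen without it. With S100A8 left out of the choice, it reached 136.2, 33.7 and 74.6 CPM in members and 0.684, 0.459 and 0.534 CPM in other barcodes. The sums did not overlap, and the log2 fold change was 7.16 (SE 0.183). S100A8 reached a mean of 2 CPM, the level needed for testing, only through members, so no p is given. The fits used edgeR's quasi-likelihood test with library as a block and Benjamini-Hochberg adjustment. In the fit for S100A8, 15.7% of 12855 genes were called higher. SPRR1B reached 158.4, 231.5 and 123.6 CPM in members chosen by the other 3 genes and 8.99, 10.9 and 9.08 CPM in other barcodes (log2 fold change 4.15, SE 0.106, edgeR adjusted p = 1.44e-12; 13.8% called higher). S100A9 reached 162.6, 252.2 and 213.6 CPM against 14.7, 16.6 and 10.5 CPM (3.98, SE 0.127, edgeR adjusted p = 6.5e-09; 14.8% called higher). KRT6A reached 104.1, 214.7 and 169.6 CPM against 11.7, 13.99 and 26.4 CPM (3.36, SE 0.151, edgeR adjusted p = 5.98e-12; 16.9% called higher), and the FaDu cinobufotalin library showed the smallest difference. Without the library block the KRT6A fold change was 3.27 with adjusted p = 0.0646.

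All further genes are those the rule did not use, tested on the 6 sums of UMIs, members and other barcodes of each library, with library as a block. Of 12840 genes with a mean of at least 2 CPM, 2106 (16.4%) were higher and 1979 (15.4%) lower in members at an adjusted p of at most 0.05, together 31.8%, and 759 (5.91%) and 294 (2.29%) were also at least 1.5-fold higher and lower. Some genes passed this filter only through their level in members. Of the 12620 that reached 2 CPM in other barcodes alone, 1981 were higher and 1979 lower. The 1.5-fold counts were not split in this way. The p-values measure how much the member-to-other difference varied over 3 libraries of different treatment, not over replicate cultures. Scaled to library totals without TMM factors, 1602 genes were higher and 2791 lower. Without the resistant TPF library 1053 were higher and 813 lower, and without the resistant TPF cinobufotalin library 1200 were higher and 1042 lower. Without the FaDu cinobufotalin library 591 genes were at least 1.5-fold lower. Without library as a block, edgeR called 34 genes higher and 0 lower, with 747 higher and 526 lower at an unadjusted p of at most 0.05.

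Genes of the epidermal differentiation complex other than those of the rule were higher in members as a group. Of 59 such genes in the files 16 passed the expression filter, all 16 were higher and the median log2 fold change was 0.96, beside a median of -0.006 over all genes tested. Some passed only through their level in members, and of the 11 that reached 2 CPM in other barcodes alone all 11 were higher (median 0.82). In the window from S100A10 to S100A1, chr1:151982915-153632039, 19 of 20 genes tested, the neighbours and antisense transcripts included, were higher and 0 lower. Of the 13 that reached 2 CPM in other barcodes alone 12 were higher and 0 lower, while 207 of 1296 such genes elsewhere on chromosome 1 (15.97%) were higher.

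Among the envelope precursors, SPRR2D had 75.6, 80.2 and 96.1 CPM in members and 8.98, 10.9 and 14.3 CPM in other barcodes (log2 fold change 2.95, SE 0.083, edgeR adjusted p = 2.54e-12). SPRR2A had 31.9, 31.6 and 32.6 CPM in members and 1.99, 3.26 and 4.46 CPM in other barcodes (3.40, SE 0.165). The members of all 3 libraries stood far above every sum of other barcodes for both genes. SPRR2E (3.48), SPRR4 (2.69) and the late envelope genes LCE3D (3.24) and LCE3E (2.92) were higher too, each under 20 CPM in members and past the filter only through that level. The SPRR2 and LCE3 genes are near-identical copies, so how UMIs divide between them is uncertain. The precursor IVL (involucrin) had 2, 3 and 5 UMIs in all members and 2, 1 and 4 in the far more numerous other barcodes. These were 0.327, 0.478 and 0.612 CPM against 0.0157, 0.00779 and 0.0254 CPM. SPRR3 had 0, 0 and 2 UMIs in members against 1, 0 and 0 in other barcodes, and neither gene was tested. SPRR1A had 8, 18 and 20 UMIs in members and 4, 11 and 21 in the far more numerous other barcodes and was below the filter.

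Of the S100 proteins, S100A7 (psoriasin), an antimicrobial protein of inflamed epidermis, had 28.5, 27.3 and 23.1 CPM in members and 0.912, 0.452 and 0.299 CPM in other barcodes (log2 fold change 5.72, SE 0.203); it passed the filter only through its level in members, so no p is given. S100A2, an abundant S100 protein of basal keratinocytes, had 11290, 9718 and 9560 CPM in members and 5479, 4304 and 5975 CPM in other barcodes (1.03, SE 0.073). Members held 174, 171 and 189 UMIs of S100A7 and other barcodes 116, 58 and 47, while S100A2 was abundant in both classes. S100A11 (0.89), S100A6 (0.83), S100A10 (0.82), S100A4 (0.67), S100A16 (0.60), S100A3 (0.58), S100A14 (0.50) and S100A13 (0.30) were higher by less.

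Of 7 suprabasal and wound keratins tested, 6 were higher and 0 lower (median log2 fold change 1.00). KRT6B and KRT13 passed the filter only through their level in members, and of the 5 others 4 were higher and 0 lower (median 0.66). The near-identical KRT6, KRT14, KRT16 and KRT17 copies make the division of UMIs between them uncertain. KRT6B, a near copy of KRT6A, had 15.9, 21.2 and 19.5 CPM in members and 1.19, 1.58 and 0.814 CPM in other barcodes (4.09, SE 0.173). KRT16, the partner of KRT6, had 30.6, 49.8 and 54.8 CPM in members and 10.0, 12.5 and 13.9 CPM in other barcodes (1.94, SE 0.089, edgeR adjusted p = 9.21e-10). KRT17, a keratin of wounded and hyperproliferative epithelium, had 2414, 3459 and 4680 CPM in members and 1230, 1738 and 2624 CPM in other barcodes (1.00, SE 0.049). KRT16 and KRT17 in members exceeded the other barcodes of the same library each time, but for KRT17 the ranges over libraries overlapped. KRT13, a suprabasal keratin of mucosa, was uneven, with 25.7, 2.39 and 9.42 CPM in members and 0.724, 1.11 and 3.93 CPM in other barcodes (2.76, SE 0.544), and DESeq2 did not call it (2.42, DESeq2 adjusted p = 0.0928). KRT80 (0.38) and KRT75 (0.66) were also higher. Without the resistant TPF cinobufotalin library the KRT80 fold change was 0.24 and no longer called. Without the resistant TPF library that of KRT75 was 0.29 and no longer called. KRT75 also lost its call in DESeq2 (0.63) and with members chosen without KRT6A (0.09) or without S100A9 (0.45), among other settings. KRT10, the main keratin of cornifying epidermis, had 986.3, 833.3 and 725.2 CPM in members and 1023, 908.2 and 674.5 CPM in other barcodes (0.04, SE 0.050, edgeR adjusted p = 0.569).

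**Figure D2:**
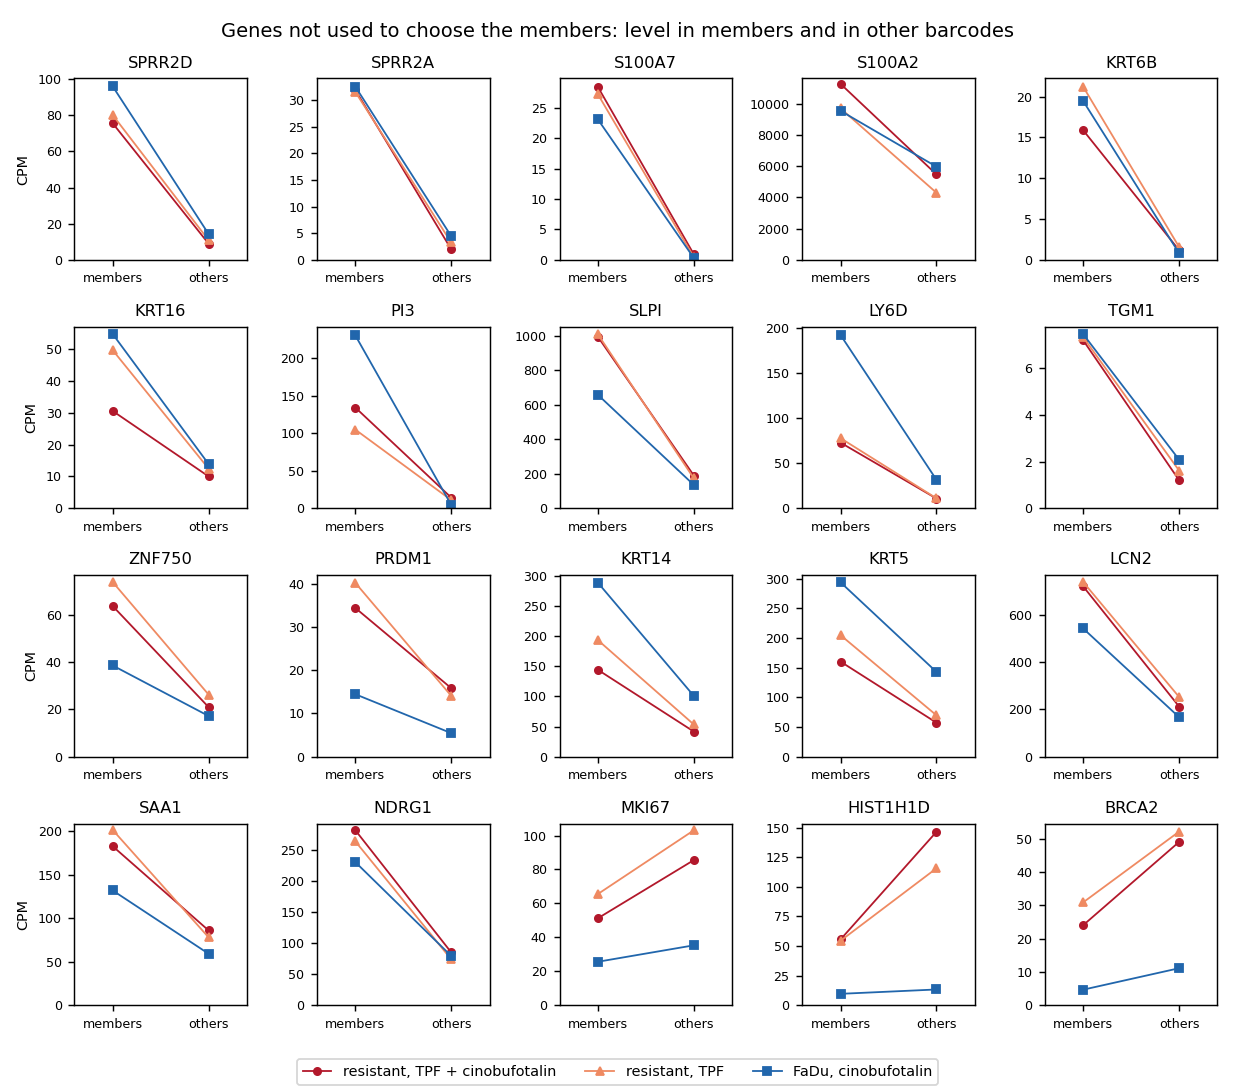
Level (CPM, linear axes from 0) of 20 genes not used to choose the members, in members and other barcodes, with 1 line per library. SPRR2D lies between 75.6 and 96.1 CPM in members against 8.98 to 14.3 CPM in other barcodes, whereas MKI67, HIST1H1D and BRCA2 are lower in members of each library.

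Of 33 genes of the cornified envelope and late differentiation, 27 were higher and 3 lower (median log2 fold change 0.83). Some passed the filter only through their level in members, TGM1 among them, and of the 28 that reached 2 CPM in other barcodes alone 22 were higher and 3 lower (median 0.72). SLPI, a secreted inhibitor of leukocyte proteases, had 994.0, 1008 and 657.6 CPM in members and 189.9, 173.5 and 135.2 CPM in other barcodes (2.47, SE 0.062, edgeR adjusted p = 1.44e-12). PI3 (elafin), an elastase inhibitor cross-linked into the envelope, had 134.2, 104.8 and 230.3 CPM in members and 14.2, 10.9 and 4.53 CPM in other barcodes (4.10, SE 0.326). SLPI was the more abundant of these protease inhibitors and PI3 the one with the larger difference. LY6D, a surface protein of squamous epithelium, had 72.8, 77.8 and 192.3 CPM in members and 10.8, 11.03 and 31.6 CPM in other barcodes (2.78, SE 0.076), with the highest level of both classes in the FaDu cinobufotalin library. TGM1, the transglutaminase that cross-links the envelope, had 7.20, 7.34 and 7.47 CPM in members and 1.20, 1.62 and 2.08 CPM in other barcodes (2.23, SE 0.190).

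CLIC3, an intracellular chloride channel protein (2.84), the calmodulin-like CALML5 (2.67), LY6G6C (2.40), the protease inhibitor SERPINB13 (1.92), the ammonium transporter RHCG (1.88) and the surface protein LYPD3 (1.63) were higher by log2 fold change. The kallikreins KLK11 (1.85), KLK8 (1.74), KLK5 (1.13) and KLK10 (0.82), serine proteases of shedding epidermis, were higher as well. So were the phospholipid-binding ANXA1 (0.99), the tight junction protein CLDN4 (0.90), the cystatins CSTB (0.49) and CSTA (0.36) and the envelope plakins PPL (0.48) and EVPL (0.40). The 3 lower genes were the fatty acid binding protein FABP5 (-0.39), the fatty acid elongase ELOVL4 (-0.36) and the secreted dermokine DMKN (-0.20). EVPL was not called without the resistant TPF cinobufotalin library (0.36), and ELOVL4 and DMKN were not called without the resistant TPF library (-0.45 and -0.12) or the resistant TPF cinobufotalin library (-0.20 and -0.20). Their calls were lost in other settings too, among them EVPL at the top 2.5% (0.38), ELOVL4 in DESeq2 (-0.35) and DMKN at the top 10% (-0.115).

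Of 25 regulators of squamous differentiation, 18 were higher and 1 lower (median log2 fold change 0.34). ZNF750, a transcription factor that drives terminal differentiation of keratinocytes, had 63.7, 73.8 and 38.6 CPM in members and 20.96, 26.3 and 17.2 CPM in other barcodes (1.49, SE 0.090, edgeR adjusted p = 2.52e-08). PRDM1 (BLIMP1), a repressor active in terminal differentiation, had 34.4, 40.2 and 14.4 CPM in members and 15.8, 14.1 and 5.45 CPM in other barcodes (1.41, SE 0.098). In each library the members exceeded the other barcodes for these regulators, with lower levels in the FaDu cinobufotalin library. MAF (1.31), HES2 (1.30), the receptor NOTCH3 (1.15), GRHL3 (0.98), OVOL1 (0.93), GRHL1 (0.52), EHF (0.42), KLF5 (0.34), KLF4 (0.28) and ELF3 (0.21) were higher. OVOL2, a zinc finger repressor related to OVOL1, was lower, with 7.04, 8.45 and 9.18 CPM in members and 18.2, 18.5 and 9.98 CPM in other barcodes (-0.77, SE 0.172). Without the resistant TPF library 12 of these 25 regulators were higher, and without the resistant TPF cinobufotalin library also 12; KLF4, ELF3 and EHF then lost their calls.

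Basal keratinocyte genes were higher in part. Of 22 tested 13 were higher and 0 lower (median log2 fold change 0.27). KRT14 had 143.9, 193.1 and 288.2 CPM in members and 41.6, 53.4 and 100.7 CPM in other barcodes (1.78, SE 0.075, edgeR adjusted p = 3.3e-10). KRT5, its partner in the filament, had 160.3, 204.9 and 294.0 CPM in members and 57.3, 69.8 and 142.9 CPM in other barcodes (1.42, SE 0.089). Members of every library thus held more transcripts of the basal pair than the other barcodes of any library. KRT15 (0.81), the desmosomal cadherins DSG3 (1.26) and DSC3 (0.87), the laminin chain LAMB3 (0.43), the hemidesmosome collagen COL17A1 (0.35) and TP63 (0.30), the regulator of stratified epithelial identity, were higher. Without the resistant TPF cinobufotalin library 7 of the 22 were higher and 1 lower, with TP63 at 0.21 and COL17A1 at 0.23 no longer called. With members chosen without KRT6A, 9 of the 22 were higher and 2 lower (median 0.14), and TP63 (0.19) and COL17A1 (0.15) were not called. Of 4 keratins of simple epithelium, KRT19 was higher (0.77), KRT7 lower (-0.23), and KRT18 (-0.14, edgeR adjusted p = 0.0796) and KRT8 (-0.02, edgeR adjusted p = 0.86) did not pass the test; the KRT7 call was lost without the resistant TPF library (-0.22).

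**Figure D3:**
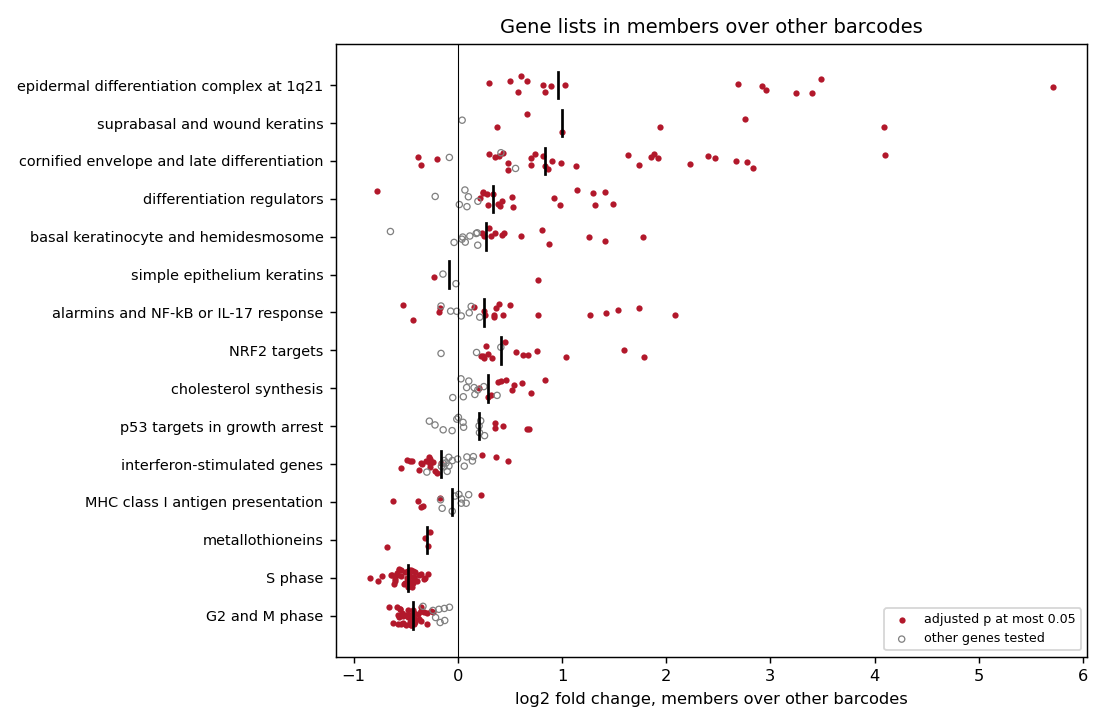
Log2 fold change of members over other barcodes for each tested gene of 15 lists, with filled points for genes called at an adjusted p of at most 0.05 and a black bar at the list's median. The squamous lists extend to the right, with a median of 0.96 for the epidermal differentiation complex, and the S phase and G2 and M lists lie left of 0, with medians of -0.48 and -0.43.

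S100A8 and S100A9 are also neutrophil and monocyte genes, and markers of myeloid cells were near the detection limit in both classes. The 10 myeloid markers summed to 6.22, 9.57 and 8.08 CPM in members and 6.32, 8.04 and 7.91 CPM in other barcodes. PTPRC (CD45), the surface marker of all white blood cells, had 1, 0 and 0 UMIs in all members, and LYZ, CSF3R, TYROBP, FCN1, AIF1 and FCGR3B had 0 in members of all 3 libraries. The sums in these markers came almost entirely from CD68, CD14 and CXCR2. Of the fibroblast markers COL1A1 was higher (0.90, SE 0.181, edgeR adjusted p = 0.00169) at 4.75, 5.90 and 4.04 CPM in members and 3.08, 3.51 and 1.83 CPM in other barcodes, and COL1A2 and LUM had no UMI in either class.

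Alarmins and genes of the NF-kB and IL-17 responses were mixed. Of 26 tested, 15 were higher and 4 lower (median log2 fold change 0.25), and scaled to library totals without TMM factors 11 were higher and 4 lower. LCN2 (lipocalin-2), which binds bacterial siderophores and whose promoter window is printed above, had 720.3, 738.7 and 542.3 CPM in members and 212.2, 252.7 and 167.2 CPM in other barcodes (1.73, SE 0.056, edgeR adjusted p = 1.66e-11). SAA1, an acute phase protein, had 182.5, 201.2 and 131.7 CPM in members and 85.8, 77.8 and 59.0 CPM in other barcodes (1.27, SE 0.070). For both genes the members of all 3 libraries stood above every sum of other barcodes. SAA2 (2.08), the complement component CFB (1.54), the epithelial cytokine IL36G (1.42), IL1B (0.77) and IL1A (0.50) were higher, whereas the neutrophil chemokine CXCL2 was lower, at 107.5, 111.1 and 99.3 CPM in members and 173.3, 181.7 and 129.1 CPM in other barcodes (-0.53, SE 0.069). With members chosen without KRT6A, CXCL2 was at -0.096 and not called, and 18 of the 26 genes were higher and 0 lower. SAA1 and SAA2 are near-identical, so their division is uncertain.

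Among the 15 genes with the largest increase at a mean of at least 20 CPM were also NDRG1, a gene induced in differentiation and hypoxia, at 282.1, 264.2 and 230.7 CPM in members and 85.1, 73.9 and 79.4 CPM in other barcodes (log2 fold change 1.77, SE 0.070). MIR205HG, the host transcript of an epithelial microRNA (1.67), LGALSL (1.58) and the surface protein CD24 (1.56) completed that set with genes named above.

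Proliferation genes were lower in members, in every tested gene of the S phase list. All 41 S phase genes tested were lower (median log2 fold change -0.48), with 1881, 2055 and 1330 CPM over the list in members and 2988, 3104 and 1744 CPM in other barcodes. Of 52 G2 and M genes 44 were lower and 0 higher (median -0.43), with 4007, 4176 and 3733 CPM in members and 5647, 5748 and 4630 CPM in other barcodes. The list sums were thus lower in members of each library, by less in FaDu than in the resistant cells. MKI67, the proliferation marker, had 51.2, 65.5 and 25.6 CPM in members and 85.5, 103.1 and 35.3 CPM in other barcodes (-0.56, SE 0.075, edgeR adjusted p = 6.95e-05). CDCA7 (-0.84), DTL (-0.77), the replicative helicase subunit MCM2 (-0.65), the chromatin protein HMGB2 (-0.62), the phosphatase CDC25C (-0.66) and the spindle checkpoint kinase TTK (-0.56) were lower.

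The 10 largest decreases at a mean of at least 20 CPM held the linker histones HIST1H1D (-1.03), HIST1H1B (-0.90) and HIST1H1E (-0.87), the recombination gene BRCA2 (-0.88) and CDCA7L (-0.89). HIST1H1D had 55.5, 54.4 and 9.55 CPM in members and 146.4, 115.6 and 13.2 CPM in other barcodes, so the difference was large in resistant cells and small in FaDu cells. The others were CENPV (-1.04), CTNNAL1 (-0.99), the cytokine IL24 (-0.98), FAM216A (-0.93) and the actin regulator EPS8 (-0.89). CDKN1A (p21), the cyclin-dependent kinase inhibitor, was higher by 0.36 (SE 0.052), at 382.9, 386.0 and 343.6 CPM in members and 312.9, 315.8 and 278.6 CPM in other barcodes.

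Measures of depth and of nuclear RNA moved with membership. Members had a median of 16930, 25790 and 22660 UMIs against 18580, 28450 and 24820 in other barcodes. The nuclear long noncoding RNA MALAT1 was a median of 1.01%, 1.56% and 0.0942% of UMIs in members and 0.734%, 0.797% and 0.0876% in other barcodes, while the mitochondrial share was 3.81%, 4.30% and 3.71% against 3.68%, 4.03% and 3.83%. Among barcodes between the lower and the upper quartile of the MALAT1 share of their library, an alternative chosen after seeing the data, top 5% members had 15 of 16 epidermal differentiation complex genes higher (median log2 fold change 0.95), 23 cornified envelope genes higher and 1 lower (0.75), and 8 of 22 basal genes higher (0.23). There 30 of 41 S phase genes were lower (-0.35), but 10 of 52 G2 and M genes were lower (-0.18), and over all genes 941 were higher and 777 lower. With the 10 highest members of each library left out, also chosen after seeing the data, 16 of 16, 41 of 41 and 44 of 52 genes of the complex, S phase and G2 and M lists were called as before.

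Several genes already differed below the limit of membership. From barcodes with a share of 0, through the top 10% to 5% just below the limit, to the top 1%, KRT14 was at 34.4, 94.7 and 195.4 CPM in the resistant TPF cinobufotalin library, 38.6, 135.8 and 259.9 CPM in the resistant TPF library and 73.7, 203.8 and 320.6 CPM in the FaDu cinobufotalin library. SLPI was at 147.6, 438.9 and 1924 CPM, 134.5, 438.2 and 2641 CPM, and 101.5, 276.6 and 1374 CPM over the same classes and libraries. Both genes were already higher just below the limit than at a share of 0, and the largest step of SLPI from one class to the next was into the top 1% in each library. Other genes were uneven from class to class: LY6D in the resistant TPF library had 45.2 CPM in the top 10% to 5%, then 39.7 and 154.6 CPM, and 52.3 CPM in the top 1%, and LCN2 in the FaDu cinobufotalin library had 341.5 CPM just below the limit and 285.6 CPM just above it. The G2 and M list in the resistant TPF cinobufotalin library was at 4151 CPM in the top 5% to 2.5% and 4362 CPM in the top 2.5% to 1%. The S phase list fell from class to class in all 3 libraries, to 1361, 1162 and 1090 CPM in the top 1%, against 3175, 3298 and 1852 CPM at a share of 0. The classes differed in depth, with a median of 16010, 22040 and 19890 UMIs in the top 1% against 18210, 27970 and 23510 at a share of 0.

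**Figure D4:**
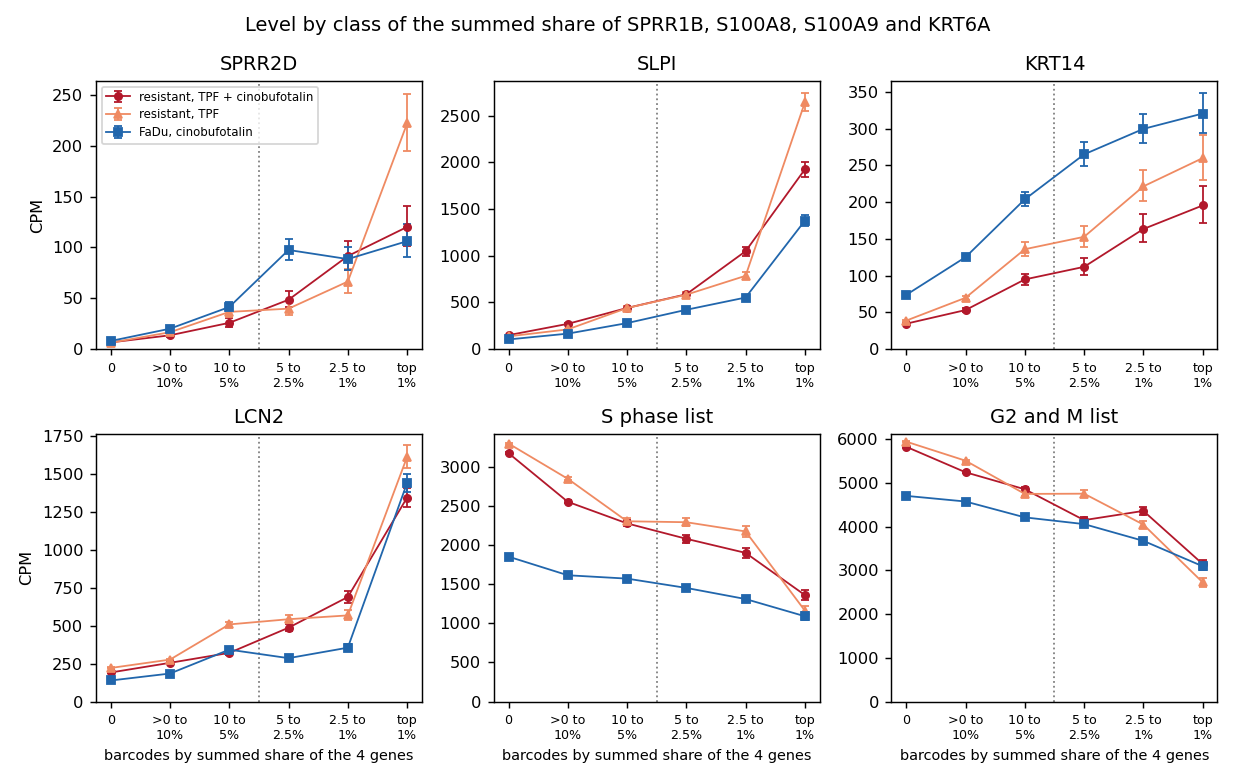
Level (CPM) of SPRR2D, SLPI, KRT14, LCN2 and of the summed S phase and G2 and M lists in 6 classes of barcodes ordered by the summed share of the 4 genes, from 0 to the top 1%, with 95% exact Poisson intervals for counting error and a dotted line at the limit of membership. KRT14 is already higher in the top 10% to 5%, at 94.7 to 203.8 CPM, than at a share of 0, at 34.4 to 73.7 CPM.

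Members differed among themselves by the gene that led them. KRT6A had the most UMIs in 102, 74 and 180 members, S100A8 or S100A9 (S100-led) in 124, 96 and 62, and SPRR1B in 97, 56 and 47, with no gene ahead in 25, 7 and 10. KRT6A-led members were thus the largest class in the FaDu cinobufotalin library and S100-led members in both libraries of resistant cells. In KRT6A-led over S100-led members, 527 of 12915 genes (4.08%) were higher and 810 (6.27%) lower at an edgeR adjusted p of at most 0.05, with library as a block and the 4 genes left out. Scaled without TMM factors 1125 were higher and 418 lower, so the split between directions depends on scaling. Without library as a block, edgeR called 0 higher and 3 lower, with 283 higher and 323 lower at an unadjusted p of at most 0.05. Without the resistant TPF library 160 were higher and 340 lower, and without the resistant TPF cinobufotalin library 139 were higher and 145 lower. The genes named here were chosen after their values were seen, from the lists and from the largest differences at a mean of at least 20 CPM.

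KRT6A-led members were higher in basal keratinocyte genes, with 14 of 22 higher and 0 lower (median log2 fold change 0.59, beside 0.011 over all genes). With the resistant TPF or the resistant TPF cinobufotalin library left out, 1 at a time, 8 of 21 basal genes were higher and 0 lower each time. KRT14 had 261.5, 292.5 and 386.1 CPM in KRT6A-led and 87.6, 122.3 and 154.5 CPM in S100-led members (1.24, SE 0.100, edgeR adjusted p = 2.20e-08), and KRT5 had 231.7, 297.7 and 376.0 CPM against 112.4, 141.9 and 168.4 CPM (0.96, SE 0.096). KRT6A-led members of each library stood above S100-led members of all 3 for both genes. COL17A1 (0.80), KRT16 (0.99), the activin antagonist FST (1.11), the envelope precursor SPRR2D (1.11) and the type III interferon IFNL1 (1.04) were higher as well; SPRR2D was not called without the resistant TPF cinobufotalin library (0.98). It was the only gene of the 1q21 complex that was higher, with 8 of 18 lower (median -0.31). Among these were SPRR1A (-1.88), LCE3D (-1.74) and SPRR2A (-0.97), and SPRR1A rested on 8, 18 and 20 UMIs in all members. Scaled without TMM factors 3 of the 18 were lower (median -0.17). Without the resistant TPF library 3 of 17 were lower (-0.35), and without the resistant TPF cinobufotalin library 1 of 18 (-0.27). How many of the 18 passed the filter only through S100-led members was not counted. Of 36 cornified envelope genes 3 were higher and 8 lower (0.085). The largest differences included the long noncoding LINC00958 (1.69), the receptor phosphatase PTPRD (1.53) and the proteoglycan SPOCK1 (1.31). MALAT1 moved the same way, at 16870, 22030 and 3872 CPM in KRT6A-led and 10260, 12470 and 2595 CPM in S100-led members (0.57, SE 0.068), and so did mitochondrial transcripts, with 13 of 16 higher and 0 lower (median 0.56), MT-ATP6 at 0.88 among them. Cytosolic ribosomal protein genes moved the other way, with 58 of 82 lower and 0 higher (-0.33), 27 lower when scaled without TMM factors, 21 without the resistant TPF library and 3 without the resistant TPF cinobufotalin library. Median UMIs were 17170, 25680 and 22420 in KRT6A-led and 17830, 26410 and 28170 in S100-led members. The part of depth, MALAT1, mitochondrial transcripts and ribosomal protein RNA in the differences was not tested.

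S100-led members were higher in alarmin and inflammatory genes, with 18 of 26 lower and 0 higher in KRT6A-led over S100-led members (median -0.88). LCN2 had 272.6, 361.4 and 274.3 CPM in KRT6A-led and 1045, 1177 and 1169 CPM in S100-led members (-2.05, SE 0.091, edgeR adjusted p = 4.96e-13). SAA1 had 46.4, 69.4 and 53.4 CPM in KRT6A-led and 317.4, 368.0 and 334.9 CPM in S100-led members (-2.74, SE 0.111). No KRT6A-led sum came near an S100-led sum for these acute phase genes, and S100A7 showed the largest difference of the named genes, at 15.5, 1.03 and 0.219 CPM against 57.7, 62.1 and 86.8 CPM (-4.29, SE 0.438). PI3 had 83.5, 81.7 and 15.5 CPM in KRT6A-led and 225.6, 128.6 and 857.5 CPM in S100-led members (-2.70, SE 0.509), and its call was lost without the resistant TPF cinobufotalin library (-3.32). CXCL2 (-1.65), the growth factor CSF2 (-1.53), IL6 (-1.20), CXCL1 (-1.10), CCL20 (-1.10), CXCL8 (-1.06), the epithelial protease inhibitor SLPI (-0.84) and the simple keratin KRT7 (-1.16) were also lower in KRT6A-led members.

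Interferon-stimulated genes went with the S100-led members too. Of 35 tested, 21 were lower and 0 higher in KRT6A-led over S100-led members (median -0.58), among them XAF1 (-1.18), IFI27 (-1.08) and MX1 (-0.88), and 9 of 15 genes of MHC class I antigen presentation were lower and 0 higher (-0.51). Without the resistant TPF cinobufotalin library 12 interferon-stimulated and 4 MHC class I genes were lower, and without the resistant TPF library 17 and 5. Without the FaDu cinobufotalin library 20 interferon-stimulated genes were lower and 3 higher, and 10 MHC class I genes were lower and 0 higher. Scaled without TMM factors, 17 interferon-stimulated genes were lower and 2 higher, and 6 MHC class I genes were lower. For IFNL1, an inducer of this response, the direction was opposite, at 160.9, 159.4 and 151.4 CPM in KRT6A-led and 52.6, 86.5 and 71.5 CPM in S100-led members (1.04, SE 0.124). Of the S phase list 3 of 41 were higher and 0 lower (0.06), and of the G2 and M list 0 were higher and 7 of 52 lower (-0.15), among them HMMR (-0.91), GTSE1 (-0.60) and CDK1 (-0.57). Scaled without TMM factors 3 G2 and M genes were lower (median -0.015). Without the resistant TPF library 0 were lower and 1 higher (-0.039), and without the resistant TPF cinobufotalin library 1 was lower and 0 higher (-0.158).

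**Figure D5:**
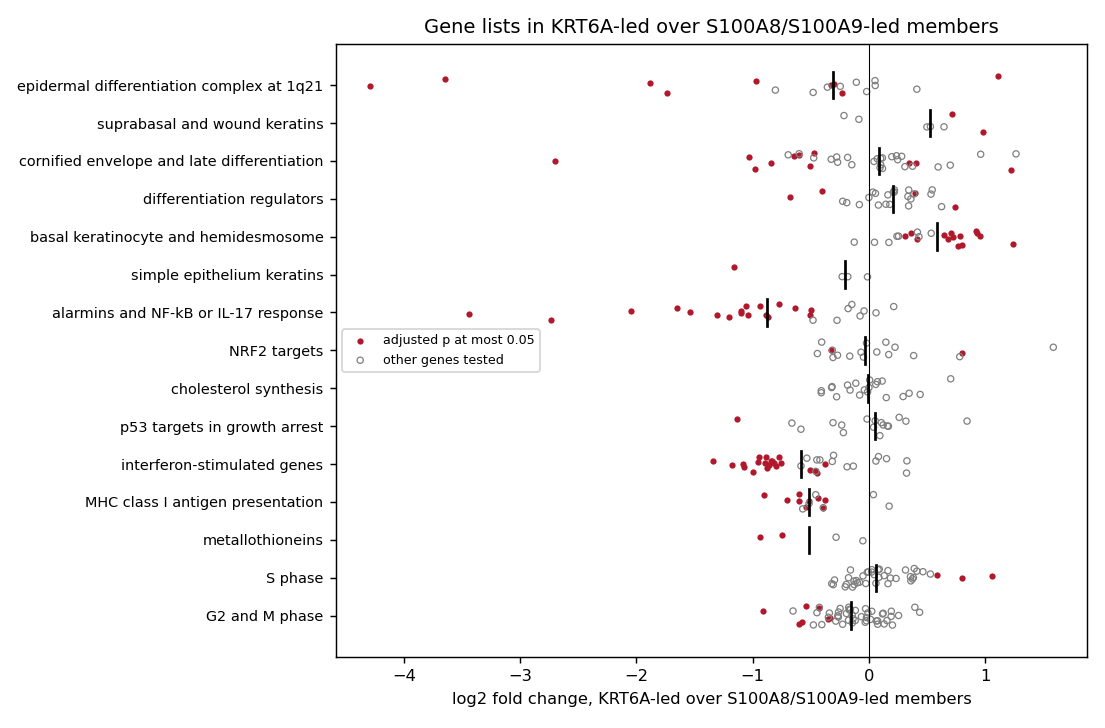
Log2 fold change of KRT6A-led over S100A8/S100A9-led members for each tested gene of the same 15 lists, with filled points for genes called at an adjusted p of at most 0.05 and a black bar at the median. Basal genes lie right of 0 with a median of 0.59, and alarmin and interferon-stimulated genes left of 0 with medians of -0.88 and -0.58.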

How the data were processed

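Single-cell 3' libraries were sequenced, 1 per group. The authors deposited raw UMI counts per gene and barcode, with Cell Ranger 7.0 and hg38 named in the submitters' processing notes. Whether intronic reads or strand were used in counting: not given in the sources used here. Members and gene lists were chosen with earlier results of these data known. The named genes were those fixed with the lists, the 15 highest and 10 lowest at a mean of at least 20 CPM, and list members by fold change.

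UMI counts were summed per library and class, 3 pairs of sums of 6103563 to 157304721 UMIs without the 4 genes, and tested with edgeR 4.0.16 in R 4.3.3 (quasi-likelihood, TMM, library as block, Benjamini-Hochberg over all genes tested); the block pairs members and other barcodes of 1 library. In simulated data 50 genes were changed 1.5-fold and 50 others 3-fold in each direction. All were recovered, and 11 of 12585 unchanged genes were called. Recovery by expression level, down to the 2 CPM filter, was not tested. Nor was a setting with differences that vary by library, or with as many genes differing as the 31.8% called here. Sequences came from a RefSeq table of promoters. DESeq2 1.42.0, other filters, other limits of membership and leaving out each library were alternatives. Free RNA was not corrected and no doublet caller was run; leaving out barcodes over 2 times the median UMIs was an alternative. Libraries shared 19, 18 and 12 barcode sequences. Intervals cover counting error only.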

Additional observations from a re-analysis of the deposited data

Results flagged for a closer look

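Barcodes outside the limits on UMIs and mitochondrial share, which no comparison above used, also held UMIs of SPRR1B, S100A8, S100A9 and KRT6A above the level that a count of 0 allows. In the resistant TPF cinobufotalin library 1934 such barcodes held 55.15 CPM of the 4 genes (48.3 to 62.7, exact 95% Poisson interval), above the 0.701 CPM of 3 counts. In the resistant TPF library 1424 such barcodes held 28.49 CPM (23.6 to 34.1), above 0.724 CPM, and in the FaDu cinobufotalin library 909 held 52.33 CPM (42.7 to 63.5), above 1.52 CPM. Barcodes within the limits held 60.1, 74.2 and 73.3 CPM in the same libraries.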

How the results depend on the processing

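Of the counts of genes higher and lower in members, those at adjusted p alone were 2106 and 1979, and moved most with the library block: without it 34 were higher and 0 lower (34 and 0 at 1.5-fold), and by leading gene 0 were higher and 3 lower; the KRT6A left-out fold change was then 3.27. Leaving out 1 library gave 1053 to 2993 higher and 813 to 2673 lower, 578 to 1047 and 204 to 591 at 1.5-fold, and 139 to 591 higher and 145 to 802 lower by leading gene. Left-out-gene fold changes then ranged from 3.99 to 4.34 (SPRR1B), 6.78 to 7.44 (S100A8), 3.79 to 4.18 (S100A9) and 3.01 to 3.71 (KRT6A). With no filter on low genes 1339 were higher and 3645 lower (939 at least 1.5-fold lower), and DESeq2 called 1276 lower. Among barcodes between the MALAT1 quartiles 941 were higher and 777 lower (363 and 140 at 1.5-fold). At 1.5-fold, a mean of at least 10 CPM left 308 higher and 114 lower, the top 10% gave 477 and 121, and the top 2.5% gave 554 lower; 495 were lower without TMM, 453 with members chosen without KRT6A and 185 without SPRR1B. Without TMM, 1125 genes were higher and 418 lower by leading gene. Over 22 settings other than these blocks and left-out libraries, 3115 of 3210 values of 147 genes kept direction and side of the threshold, 71 lost and 14 gained a call, and 10 reversed. Reversals were KRT10 (-0.023 without TMM, -0.085 with no filter, -0.003 to 0.081 with 1 library left out), KRT8 (0.013 with members chosen without KRT6A, 0.215 between the MALAT1 quartiles, 0.017 without the block, 0.057 at the top 10%, 0.006 thinned, -0.089 to 0.084 with 1 library left out), KRT18 (0.16) and KRT7 (0.05) between the MALAT1 quartiles, KRT7 (0.10) and ITGA6 (-0.007) with members chosen without KRT6A, and TXNIP (-0.403 to 0.03 with 1 library left out); the cause was not tested. Members near the limit rest on few UMIs.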

Other observations

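Counts for lists outside squamous differentiation stand beside 16.4% of all genes higher and 15.4% lower in members, 8.31% and 6.42% without the resistant TPF library, and 9.44% and 8.20% without the resistant TPF cinobufotalin library. Of 17 NRF2 targets 14 were higher in members and 0 lower (median log2 fold change 0.41), led by the steroid-metabolising AKR1C1 (1.78) and AKR1C3 (1.59), the efflux pump ABCC2 (1.04) and the heme oxygenase HMOX1 (0.76); 9 of 17 were higher without the resistant TPF library. AKR1C1 had 38.6, 36.8 and 17.1 CPM in members and 9.91, 10.0 and 7.27 CPM in other barcodes. Of 21 cholesterol synthesis genes 11 were higher and 0 lower (0.29), among them MSMO1 (0.83) and STARD4 (0.70); 6 of 21 were higher without the resistant TPF library. Of 17 p53 targets 5 were higher and 0 lower, among them the proapoptotic BBC3 (0.69) and PHLDA3 (0.66). Scaled without TMM factors, 12 NRF2 targets were higher and 1 lower, and 5 p53 targets were higher and 2 lower.

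Of 4 metallothioneins tested, all 4 were lower (-0.30), with MT1E at 372.2, 258.0 and 515.4 CPM in members and 557.3, 464.4 and 900.9 CPM in other barcodes (-0.68); 2 of 4 were lower without the resistant TPF library. MT2A (-0.18), MT1X (-0.11) and MT1F (-0.16) were not called at the top 10%, nor were MT2A (-0.06) and MT1X (-0.125) with members chosen without KRT6A. Of 35 interferon-stimulated genes 17 were lower and 3 higher (-0.16), with USP18 (-0.55) lower and OASL (0.48) higher; without the resistant TPF library 7 were lower and 1 higher, and without the resistant TPF cinobufotalin library 11 and 2. With members chosen without KRT6A, 7 interferon-stimulated genes were lower and 6 higher, and 3 MHC class I genes were lower and 2 higher. Of 15 MHC class I genes 5 were lower and 1 higher, with PSMB9, an immunoproteasome subunit, at -0.62; without the resistant TPF library 3 were lower and 0 higher. The EGFR ligands HBEGF (0.51) and TGFA (0.53) were higher, and the AP-1 factors JUN (-0.50) and FOS (-0.39) were lower; without the resistant TPF library JUN (-0.29) and FOS (-0.23) were not called. The matrix protease MMP3 was lower (-1.27), but was not called at the top 10% (-0.52) or with members chosen without S100A9 (-0.60). The plasminogen activator PLAU (0.51) and its receptor PLAUR (0.61) were higher. Hypoxia-inducible genes were mixed, with 7 of 20 higher and 3 lower, 3 of 16 glycolysis genes higher without the resistant TPF cinobufotalin library against 6 with it, and 5 of 16 integrated stress response genes lower and 1 higher. Without the resistant TPF library 7 hypoxia-inducible genes were higher and 0 lower, and 1 integrated stress response gene was higher and 1 lower. TXNIP had 133.9, 110.3 and 24.4 CPM in members and 173.0, 168.8 and 17.9 CPM in other barcodes (-0.19, SE 0.123, edgeR adjusted p = 0.26).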
